A study of Mus musculus with 20 samples.

Results

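The striatum of High-Active mice was compared with that of Control mice 2 hours after both had received the same low dose of d-amphetamine sulfate, 0.25 mg/kg into the peritoneum. The members of this comparison were the 5 High-Active and the 5 Control mice that were given amphetamine, 10 of the 20 mice sequenced, and they were chosen by the line and injection in their labels. The remaining 10 mice, 5 of each line, received saline and were used to see whether a difference between the lines was also there without the drug. All were males of generation 17, about 6.5 months old at injection, from an outbred stock made by systematically intercrossing 8 inbred founder strains. High-Active mice descend from parents selected for long distances traveled in the home cage, and Control mice from parents not selected for activity. There is 1 line of each kind, so an effect of selection on activity and random drift between closed populations cannot be told apart. The 5 mice of each amphetamine group had 5 different pairs of parents.

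The striatum is the main input station of the basal ganglia. Nearly all of its neurons are medium spiny projection neurons, which read dopamine through D1 or D2 receptors and use GABA as their transmitter. Amphetamine enters dopamine terminals through the dopamine transporter, and releases dopamine into the extracellular space, and at low doses it is a treatment for attention deficit hyperactivity disorder. Immediate early genes such as Fos and Egr1 are transcribed within minutes of strong dopamine receptor stimulation and have often returned toward baseline after a few hours.

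Behavior differed between these particular mice. In re-phenotyping, High-Active mice traveled 1.472 km/day ± 0.9942 (SD, n = 5) and Control mice 0.2957 km/day ± 0.1004 (SD, n = 5). The ranges, 0.6283 to 3.185 and 0.238 to 0.4742 km/day, did not overlap (exact permutation test, two-sided, p = 0.007937, which no regrouping of 5 and 5 mice can go below). After the injection, High-Active mice traveled 181.3 ± 197.2 (SD, n = 5) and Control mice 33.17 ± 13.7 (SD, n = 5) in a unit that the labels do not name (exact permutation test, p = 0.01587). Without High-Active mouse 905 the difference in this distance was 63.65 in place of 148.1 (exact permutation test, p = 0.03175). After saline, High-Active mice traveled 46.41 to 88.06 and Control mice 17.37 to 45.43 in the same unit. None of these distances was adjusted for the difference already present in re-phenotyping. High-Active mice weighed 34.26 g ± 8.525 and Control mice 41 g ± 4.267 (SD, n = 5 each). This difference was not resolved with 5 mice per group (exact permutation test, p = 0.1667). Without High-Active mouse 487, the heaviest, the difference was −10.02 g (exact permutation test, p = 0.04762). In the other 9 comparisons without 1 mouse p was 0.05 or more. Without High-Active mouse 905 the difference was −4.825 g (exact permutation test, p = 0.3175).

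The 10 amphetamine libraries held between 32388971 and 53710713 reads on genes. In 4 of the 5 High-Active mice this number was above every Control mouse. The difference of the group means was not resolved with 5 mice per group (exact permutation test, p = 0.0873). Levels are given as CPM, the counts per 1000000 reads on genes, and compare mice but not genes of different length. Genes were called at a false discovery rate (FDR) under 0.1 with edgeR's quasi-likelihood test, and adjusted p values are from that test. The p values measure the spread between these mice. The tissue carried the markers of striatum in all 10 mice: Drd1, the D1 receptor, lay between 173 and 270 CPM and Drd2, the D2 receptor, between 98.4 and 154 CPM. The libraries also differed in markers of neighboring tissue. Summed markers of septal and diencephalic neurons reached 291 CPM in High-Active mouse 415 and 286.8 CPM in mouse 487, against 68.67 to 83.28 in the other High-Active mice and 67.14 to 116.7 in Control mice. In the same mouse 415 summed markers of cortical excitatory neurons stood at 228.5 CPM, against 635.3 to 855 in Control mice, and in mouse 487 markers of choroid plexus and ependyma reached 1019 CPM. In bulk tissue, fewer cells of a type and less RNA per cell cannot be told apart.

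**Figure D1:**
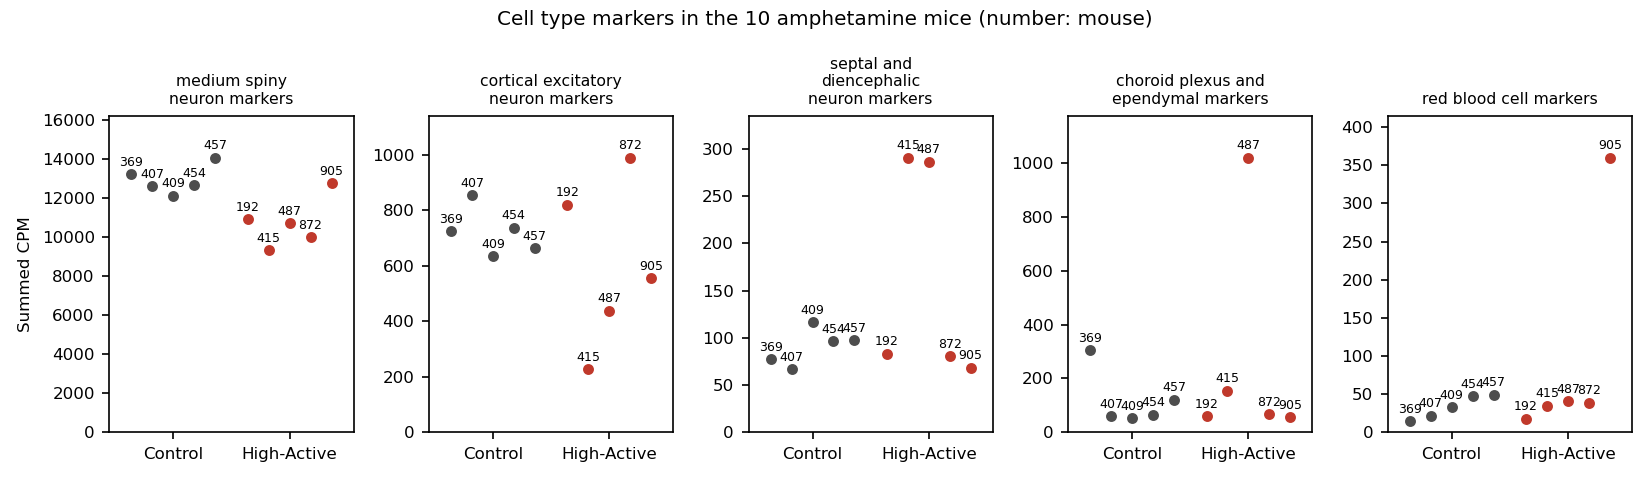
Summed CPM (vertical axis, from 0) of 5 lists of cell type markers in each amphetamine mouse, with Control mice on the left, High-Active mice on the right and each point labelled with its mouse number. High-Active mice 415 and 487 stand above the other 8 mice in septal and diencephalic markers, and mouse 905 stands at 360.1 CPM in red blood cell markers.

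Of the 14792 genes tested, 193 (1.3%) differed between the lines in amphetamine mice, 97 higher in High-Active mice (0.656%) and 96 lower (0.649%). Most of these differences were small. Of the genes that were higher, 49 differed by less than 1.5-fold and 20 by 2-fold or more, and of the genes that were lower, 62 and 15 did. The median log2 difference was 0.55 among the higher genes, −0.46 among the lower genes and 0.001261 over all genes tested. The values of the 5 High-Active mice lay wholly above those of the 5 Control mice for 69 called genes and wholly below for 74, while 2.94% of all genes tested were separated in this way, 1.47% in each direction. An unadjusted p under 0.05 was reached by 1870 genes (12.6%). The number of calls depended on single mice, falling from 193 to 79 without High-Active mouse 415. It fell to 115, 117 and 120 without High-Active mice 487, 872 and 905, and to 126, 89, 97 and 87 without Control mice 407, 409, 454 and 457. Without mice 415 and 487, a pair chosen after their marker levels were seen, 41 genes were called.

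In 33 alternative fits, 20 of which left out 1 mouse, 24 of the 193 genes were called every time. The 11 higher genes were Stx3, Tmem44, Wdr83, Wdr11, Coq7, Suclg2, Itpr2, Sclt1 and the pseudogenes Gm9843, Gm13910 and Gm6395. The 13 lower genes were Syce2, Serpinb6a, Abcb1b, Fabp5, Preb, Gatad1, Bub3, Tgfbr3, Pdxdc1, A230103J11Rik, Ccdc59, Wbp11 and the pseudogene Gm7887. Sclt1, Ccdc59, Wbp11, Gm13910 and Gm6395 are named because they held in every fit, after their values were seen. Another 49 called genes kept their call in at most 16 of the 33 fits. Of the 20 fits without 1 mouse, 10 left out a saline mouse. Saline mice enter the amphetamine contrast only through the filter, the normalization and the shared spread. Counts of lost calls out of 20 fits, given below, include these fits.

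Stx3, a syntaxin of the SNARE machinery that fuses vesicles with the plasma membrane, had the smallest p of all genes. Stx3 (ENSMUSG00000041488) lies on the minus strand of chr19:11775118-11819403 in GRCm38, as do all positions given here. It stood at 24, 22.2, 20, 20.8 and 20.4 CPM in the Control mice and at 36.3, 32, 38.3, 36.1 and 37.3 CPM in the High-Active mice. The groups were separated by a gap wider than the spread within either. The log2 difference was 0.75 (SE 0.08, adjusted p = 0.0001322), a 1.677-fold higher level. Saline mice showed 24.25 CPM ± 1.835 in the Control line and 34.61 CPM ± 3.804 in the High-Active line (SD, n = 5 each; log2 difference 0.51, adjusted p = 0.00321 with edgeR).

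Cplx1, complexin 1, which clamps and triggers SNARE complexes at fast synapses, was the other member of a list of 46 vesicle and SNARE genes to be called, beside 0.656% of all genes tested called higher, and no member was called lower (0.649% of all genes). Cplx1 levels were 468, 518, 505, 537 and 464 CPM in Control mice and 624, 633, 517, 620 and 567 CPM in High-Active mice. The lowest High-Active mouse, 487, lay below the Control mice 407 and 454, so the groups overlapped. The log2 difference was 0.25 (SE 0.07, adjusted p = 0.09399), a call that was lost in 16 of the 20 fits without 1 mouse. The median of the 46 genes was −0.03, and 0.04 without mice 415 and 487. Saline mice had a log2 difference of −0.08 for Cplx1 (adjusted p = 0.5485).

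Tmem44, a multipass membrane protein on the list of genes around Wnt signaling, was higher in every High-Active mouse. Control mice had 28, 24, 30.8, 28.2 and 28.1 CPM and High-Active mice 60.9, 43.1, 54, 41 and 63.3 CPM. The High-Active values spread over a wider range but none reached down to the Control values (log2 difference 0.92, SE 0.14, adjusted p = 0.00793). The difference in saline mice was of the same size (log2 0.91, adjusted p = 0.005583). The gene lies on chr16:30511855-30550842.

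The Wnt pathway carries signals from secreted Wnt ligands through Frizzled receptors to beta-catenin, which joins TCF and LEF factors in the nucleus unless it is degraded by a complex that holds Gsk3b. Of 57 tested genes on this list 5 were called higher and none lower, beside 0.656% and 0.649% of all genes tested, and the median log2 difference of the 57 was 0.03. The called genes were Tmem44, Ctnnbip1, Dpysl5, Rassf8 and Amotl2, all picked by the study on these same mice. Neither their number beside the share of all genes nor their direction is therefore independent evidence. The other 52 tested genes of the list were not called. Ctnnbip1, an inhibitor that binds beta-catenin and keeps it from TCF, stood at 25, 22, 21, 21 and 21.4 CPM in Control mice and at 25.2, 35, 36, 30.5 and 29.6 CPM in High-Active mice. The highest Control mouse and the lowest High-Active mouse nearly touched (log2 difference 0.50, SE 0.10, adjusted p = 0.03013). Dpysl5, a collapsin response mediator of growing neurites, differed by 0.41 (adjusted p = 0.02968). Amotl2, an angiomotin that holds transcriptional coactivators at cell junctions, differed by 0.49 (adjusted p = 0.0491), and Rassf8 by 0.55 (adjusted p = 0.07096). Without mice 415 and 487 Tmem44 kept its call and Ctnnbip1, Dpysl5, Rassf8 and Amotl2 lost theirs, and without single mice Rassf8 lost it in 6 of 20 fits and Amotl2 in 3. In saline mice Rassf8 was called as well (log2 0.69, adjusted p = 0.01479), while Ctnnbip1, Dpysl5 and Amotl2 differed by 0.17, 0.22 and 0.23 without passing the threshold. The core of the pathway was not called: beta-catenin itself (Ctnnb1) differed by 0.03 (adjusted p = 0.7832) and the kinase Gsk3b by −0.16 (adjusted p = 0.2028).

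Fabp5, a carrier of fatty acids in the cytosol, was lower in every High-Active mouse. Its levels were 67.8, 43.5, 53.9, 54.5 and 69.5 CPM in Control mice and 32.7, 35, 36.6, 36 and 31.9 CPM in High-Active mice. The Control mice varied and the High-Active mice lay close together below them (log2 difference −0.75, SE 0.13, adjusted p = 0.00879). It was the 1 called gene among 34 tested genes of fatty acid oxidation and PPAR signaling, beside 0.649% of all genes tested called lower. The median of the 34 was 0.02 (−0.04 without mice 415 and 487). Among 32 tested genes of sterol and fatty acid synthesis 2 were called, both lower, beside 0.649% of all genes tested called lower. Both belong to cholesterol synthesis: Cyp51, lanosterol demethylase (−0.40, adjusted p = 0.07096), and Lss, lanosterol synthase (−0.36, adjusted p = 0.08176). The median of that list was −0.05, and leaving out 1 mouse ended the call of Lss in 11 of 20 fits and of Cyp51 in 7. Apod, apolipoprotein D, a lipid carrier secreted by glia, was higher, at 139.6 CPM ± 36.22 against 70.32 CPM ± 12.26 (SD, n = 5 each; log2 difference 0.99, adjusted p = 0.01561 with edgeR). Its highest values, 190 and 153 CPM, were in mice 415 and 487, in which summed oligodendrocyte markers were also highest, at 8201 and 8408 CPM against 5316 to 7568 CPM in the other 8 mice. The call was lost without these mice and with the medium spiny score as a covariate.

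Coq7, the hydroxylase of the penultimate step in making coenzyme Q, was higher in the High-Active line. Control mice had 16, 12.1, 16.7, 13.3 and 13.2 CPM and High-Active mice 20.3, 23, 20, 19.6 and 21.1 CPM, with no overlap. The log2 difference was 0.54 (SE 0.09, adjusted p = 0.00879), and 0.74 in saline mice (adjusted p = 0.0004027). None of the other 12 genes of coenzyme Q synthesis was called, and the list's median was 0.02 (−0.04 without mice 415 and 487). Suclg2, a subunit of the GTP-forming succinyl-CoA ligase of the citric acid cycle, was higher by 0.47 (adjusted p = 0.01651). The 82 tested nuclear genes of the respiratory chain had no call and a median of 0.04. All 12 tested genes of the mitochondrial genome lay above 0, with a median of 0.18. The 1 call, beside 0.656% of all genes tested called higher, was mt-Nd5, a subunit of complex I (0.32, adjusted p = 0.08974). It was lost in 9 of the 20 fits without 1 mouse.

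Abcb1b, which encodes a form of P-glycoprotein, an exporter of drugs from cells, was lower in High-Active mice. It stood at 3.15, 1.85, 2.5, 2.51 and 2.92 CPM in Control mice and at 0.609, 0.835, 1.5, 0.501 and 1.01 CPM in High-Active mice. The groups were separated (log2 difference −1.53, SE 0.24, adjusted p = 0.00793). After saline the levels were 2.709 CPM ± 0.2883 in Control and 2.013 CPM ± 0.4366 in High-Active mice (SD, n = 5 each), and the difference of −0.43 was not called (adjusted p = 0.3522 with edgeR). The interaction, the amphetamine difference less the saline difference, was −1.10 on the log2 scale, with an unadjusted p of 0.0036 and an adjusted p of 1.

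Serpinb6a, an intracellular inhibitor of serine proteases on chr13:33917918-34002794, was lower in all High-Active mice. Control mice had 37.7, 38.1, 35.2, 47.2 and 35.5 CPM and High-Active mice 23.1, 24.3, 23.2, 22 and 21.7 CPM (log2 difference −0.76, SE 0.11, adjusted p = 0.005079). The separation was complete, and in saline mice the difference was −0.37 (adjusted p = 0.09288). Tgfbr3, betaglycan, a co-receptor that presents TGF-beta, was lower by 0.70 on the log2 scale in amphetamine mice and by 0.60 in saline mice.

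Syce2, a structural protein of the synaptonemal complex of meiosis, had the smallest p among the genes that were lower. Its levels were 2.88, 2.13, 2.33, 2.16 and 2.71 CPM in Control mice and 0.67, 0.712, 1.06, 0.668 and 0.646 CPM in High-Active mice. These are low levels, and the gap between the groups was wider than the range within either (log2 difference −1.69, SE 0.20, adjusted p = 0.0004658). Wdr83, a WD repeat scaffold protein less than 1 Mb away on chromosome 8, went the opposite way, with 8.98, 12.1, 13.1, 13.8 and 9.8 CPM in Control and 18.1, 20.5, 20.9, 19.2 and 19.8 CPM in High-Active mice (log2 0.77, adjusted p = 0.00793). Both were called in saline mice in the same direction.

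**Figure D2:**
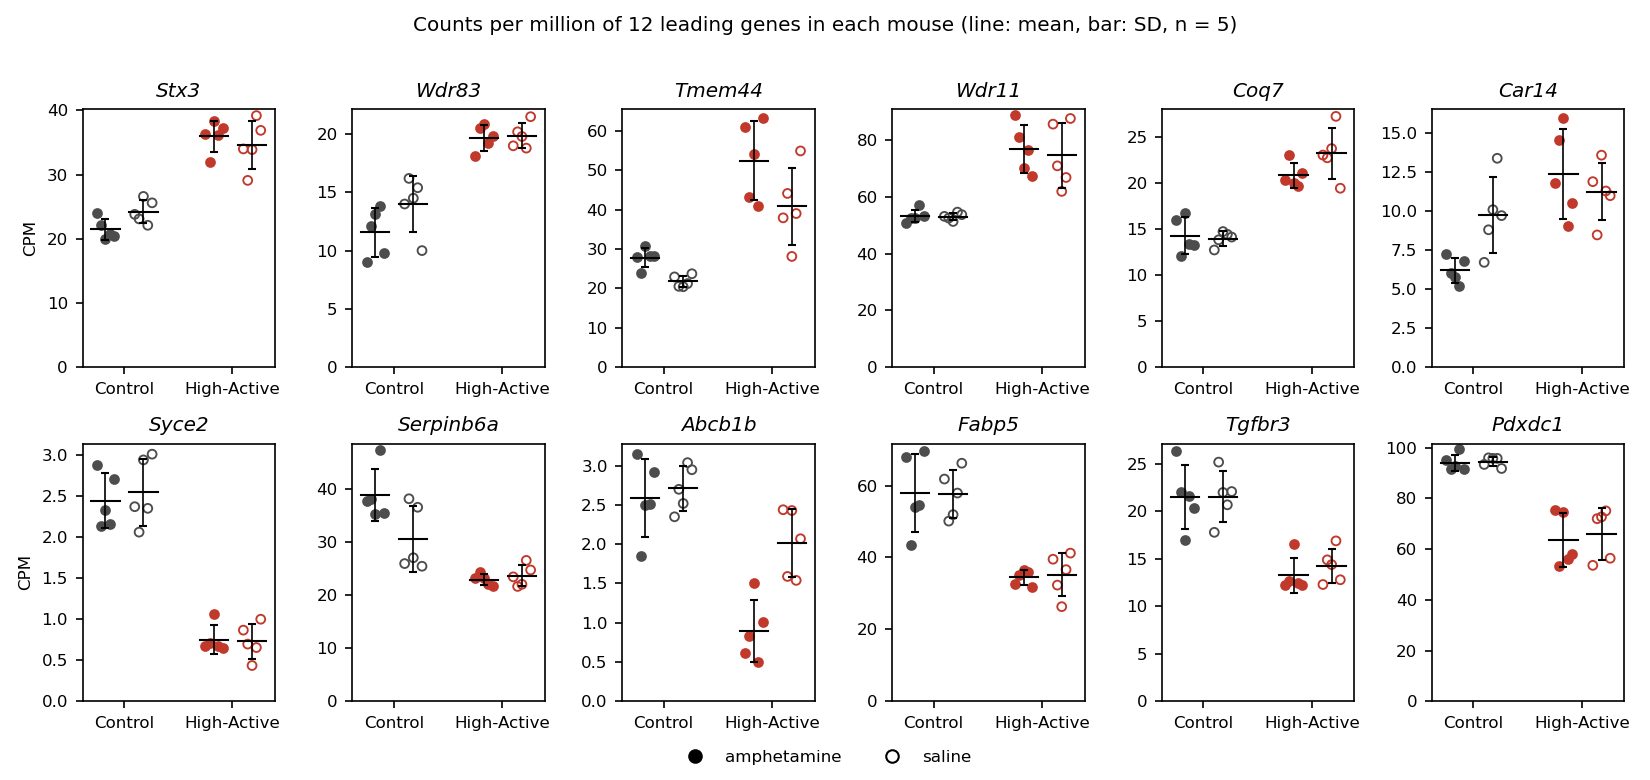
CPM (vertical axis, from 0) of 12 called genes in each mouse, for Control mice in gray and High-Active mice in red. Filled points are amphetamine mice and open points saline mice, with the mean as a line and the SD as a bar (n = 5 mice). In Stx3 the amphetamine mice of the 2 lines lie at 20 to 24 and 32 to 38.3 CPM, and in Car14 the lines are apart after amphetamine and overlap after saline.

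The remaining genes with the smallest p served varied functions. Wdr11, a WD repeat protein of vesicle tethering at the Golgi, was higher by 0.53 (SE 0.09, adjusted p = 0.00879), and Itpr2, a calcium release channel of the endoplasmic reticulum, by 0.36 (adjusted p = 0.01332). Mrc2, an endocytic collagen receptor, was higher by 1.21 (adjusted p = 0.01776). Car14, a membrane-bound carbonic anhydrase, was higher by 0.99 (adjusted p = 0.01188). Preb, which loads the COPII coat at the endoplasmic reticulum, was lower by 0.33 on the log2 scale. Bub3, a protein of the spindle checkpoint, was lower by 0.25 and Gatad1, a zinc finger chromatin protein, by 0.28, and their groups did not overlap. Ptpn7, a phosphatase of MAP kinases, was lower, at 7.245 CPM ± 0.4925 in Control and 4.017 CPM ± 0.6722 in High-Active mice (SD, n = 5 each; log2 difference −0.85, adjusted p = 0.01169 with edgeR). Without mice 415 and 487 Mrc2, Car14 and Ptpn7 were no longer called.

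Among the genes with the largest log2 differences, several were scarce. Gm5148 differed by 4.66 (SE 0.93), but Control mice had between 0.0237 and 0.174 CPM and High-Active mice between 0.264 and 3.12 CPM. Gm9903 differed by −3.69 (SE 0.75), with 0.198 to 1.18 CPM in Control mice and 0 to 0.124 CPM in High-Active mice. Tekt5, a tektin of sperm flagella, was higher by 1.70 (adjusted p = 0.07096), with 0.617 to 4.86 CPM in Control mice overlapping 4.56 to 10.5 CPM in High-Active mice. Eqtn, a protein of the sperm acrosome, was lower by 2.05 on the log2 scale, and Tes, a focal adhesion protein, by 1.48. Leaving out 1 mouse ended the calls of Tekt5 in 6 of 20 fits, of Tes in 13 and of Eqtn in 13 of the 17 fits in which it was tested. All 6 fits that ended the call of Tekt5 left out an amphetamine mouse.

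The 10 saline mice served as a comparison in mice that the amphetamine contrast did not use, although the fit shares 1 estimate of the spread over all 20. Of the 193 genes, 190 differed in the same direction in saline mice, 95 of the 97 higher genes and 95 of the 96 lower genes. Over all genes tested the lines differed in the same direction in both for 70.88%. The genes were selected on the amphetamine values, and their sizes were smaller in saline mice for 73 of the higher and 83 of the lower genes, with medians there of 0.39 and −0.28. An unadjusted p under 0.05 in the same direction was reached in saline mice by 74 of the higher genes (8.83% of all genes tested) and 68 of the lower genes (8.57%). In saline mice 553 genes (3.74%) were called, 294 higher (1.99%) and 259 lower (1.75%), and 81 genes were called in both treatments, all in the same direction. These are 41.97% of the amphetamine calls and 14.65% of the saline calls. Siblings link the treatments, since 4 High-Active and 2 Control amphetamine mice had a brother among the saline mice. Within the saline mice, High-Active mice 499 and 871 had the same parents.

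**Figure D3:**
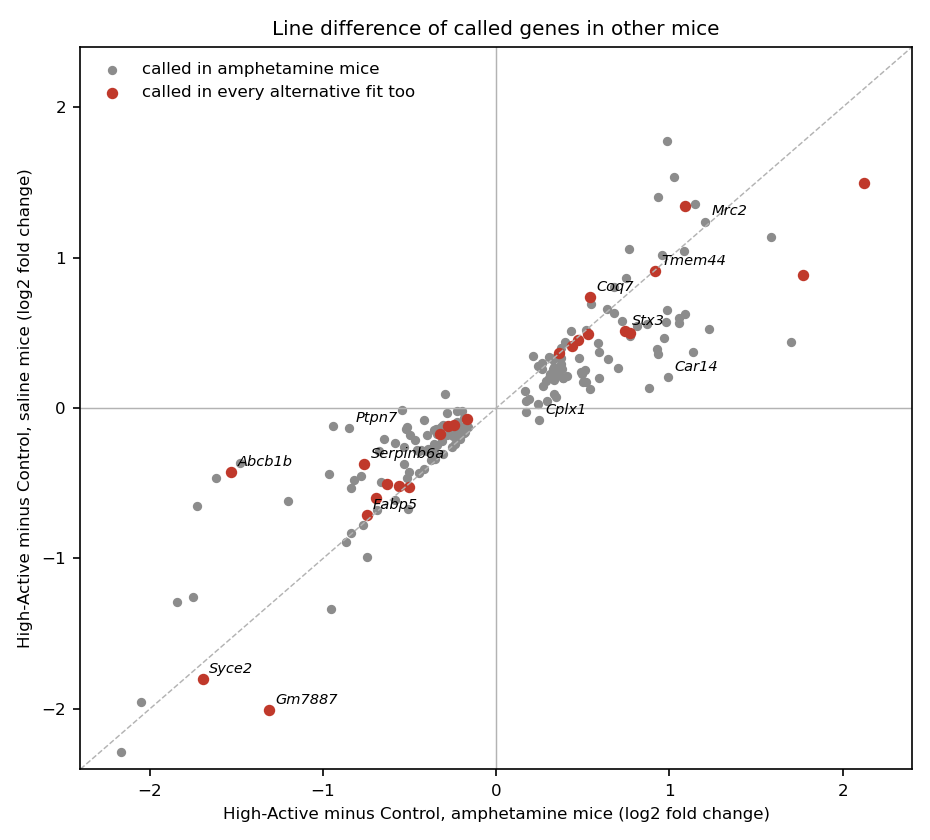
Log2 difference between the lines (High-Active minus Control) of the called genes, in amphetamine mice on the horizontal axis and in saline mice on the vertical axis, each point a gene and red points those called in every alternative fit; 183 genes are shown and 10 with larger values lie outside the axes, which end at 2.4. Of the 193 called genes 190 have the same sign on both axes, and most lie nearer to 0 on the saline axis.

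Whether the line difference itself depended on the drug was tested as an interaction. No gene passed in edgeR's quasi-likelihood test, limma-voom or DESeq2, while 440 genes (2.97%) had an unadjusted p under 0.05 in the quasi-likelihood test. A likelihood ratio test with robust dispersions, also from edgeR and of the kind the study used, called 6. Among the 193 genes, 32 had an unadjusted interaction p under 0.05. These genes were selected on the amphetamine difference, which is a part of the interaction, and that selection alone favors small interaction p values. The count, and the unadjusted interaction p of called genes such as Abcb1b, Cplx1, Car14 and Ptpn7, are therefore not independent of the selection. Cplx1 had rank 5 among all genes (interaction 0.33, unadjusted p = 0.001895, adjusted p = 1). Car14 and Ptpn7, called after amphetamine, differed by 0.20 and −0.13 in saline mice (interaction in edgeR's quasi-likelihood test, unadjusted p = 0.004644 and 0.002905, adjusted p = 1). The genes 2610002M06Rik, Rtl8a, Resf1, Tcea1-ps1 and Ikzf3, a lymphocyte zinc finger factor, completed the 6 smallest p values, none of them called in amphetamine mice.

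Glo1, glyoxalase 1, which detoxifies methylglyoxal, was called in saline but not in amphetamine mice. Its levels after amphetamine were 141, 132, 101, 109 and 141 CPM in Control mice and 218, 248, 139, 221 and 168 CPM in High-Active mice. A single High-Active mouse, 487, lay within the Control range (log2 difference 0.67, SE 0.20, adjusted p = 0.1603). After saline the values were 86.24 CPM ± 33.66 and 229.2 CPM ± 19.61 (SD, n = 5 each; log2 1.41, adjusted p = 0.002861 with edgeR). The unadjusted interaction p was 0.01703. The latrophilin Adgrl3, an adhesion receptor of synapses, differed by −0.38 (adjusted p = 0.4395) and its ligand Flrt3 by −0.18 (adjusted p = 0.3175), and neither was called.

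A class of genes with many calls was the pseudogenes. Processed pseudogenes, copies of spliced messenger RNA that were inserted elsewhere in the genome, made up 16 of the calls among 287 tested (5.57%), against 163 of 13727 protein-coding genes (1.19%). With 2 unprocessed pseudogenes they came to 18, 9 higher and 9 lower. The closest transcripts of tested genes were 92.11% to 100% identical to them, with a median of 99.33%, so a read of 100 bases inside a shared window would fit both places, and values of these pairs are reported as uncertain. In 9 of the 18, most windows of 100 bases were not shared with the closest gene. Of the 18 pseudogenes 14 differed in the direction opposite to their closest gene, and all 18 differed in the same direction in saline mice. Only 2 of the closest genes, Fabp5 and Cetn4, were called. The pairs below, other than Gm6180 and Gm9843, were picked after their values were seen.

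Stretches of 80 bases are printed to show the kind of difference by which reads of a pseudogene and its gene can be told apart. Each was chosen for having the most differences among the stretches of this length aligned without a gap, so it is not typical of the pair. Of all windows of 100 bases, 80 of 310 were shared between Gm6166 and Fabp5, 368 of 819 between Gm16589 and Aida, 584 of 1137 between Gm5578 and Brox and 9 of 399 between Gm6180 and Cfl1. Each pair comes from the coding part of the gene, read 5′ to 3′ from the GENCODE M21 transcripts of GRCm38. Capitals mark the 2 positions at which the pair differs.
Gm6166 (chr9:57484278-57484357, plus strand): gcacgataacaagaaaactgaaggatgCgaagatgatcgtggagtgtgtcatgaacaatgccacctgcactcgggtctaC
Fabp5 (transcript bases 406 to 485): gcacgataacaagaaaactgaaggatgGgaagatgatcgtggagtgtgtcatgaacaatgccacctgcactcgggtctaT
Gm16589 (chr8:4087663-4087742, plus strand): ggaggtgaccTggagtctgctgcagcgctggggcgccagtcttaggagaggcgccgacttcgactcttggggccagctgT
Aida (transcript bases 476 to 555): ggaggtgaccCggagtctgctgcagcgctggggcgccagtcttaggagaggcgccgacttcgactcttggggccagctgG
Gm5578 (chr6:112605743-112605822, plus strand): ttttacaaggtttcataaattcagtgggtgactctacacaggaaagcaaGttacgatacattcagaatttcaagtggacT
Brox (transcript bases 394 to 473): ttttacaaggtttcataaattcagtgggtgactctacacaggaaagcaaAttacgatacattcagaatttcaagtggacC
Gm6180 (chr8:42247072-42247151, plus strand): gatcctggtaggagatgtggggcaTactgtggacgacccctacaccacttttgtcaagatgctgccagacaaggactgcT
Cfl1 (transcript bases 277 to 356): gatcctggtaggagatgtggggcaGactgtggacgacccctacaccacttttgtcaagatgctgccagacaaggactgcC

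Fabp5, described above as lower in High-Active mice, has such a copy in Gm6166 on chromosome 9. Gm6166 stood at 5.58, 6.81, 4.31, 3.7 and 0.166 CPM in Control mice and at 20.5, 23.7, 25.2, 24.3 and 22.6 CPM in High-Active mice. The groups were far apart (log2 difference 2.51, SE 0.60, adjusted p = 0.07096), and the call was lost in 6 of the 20 fits without 1 mouse. The difference was 19.14 CPM for the pseudogene and −23.39 CPM for Fabp5. The sum of both was 61.97 CPM ± 9.416 in Control and 57.72 CPM ± 3.704 in High-Active mice (SD, n = 5 each), a log2 difference of −0.09 (exact permutation test, p = 0.4048, adjusted over 18 pairs 0.6072). With 80 of 310 windows shared, some reads could fit both, and their part in the values of Fabp5 and Gm6166 was not tested. The call on Fabp5 is reported as uncertain.

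The pseudogenes of Aida and Brox, which are neighbors with overlapping ends on chromosome 1, were both lower in High-Active mice. Gm16589, the copy of Aida, stood at 0.521, 9.45, 4.52, 9.03 and 9.83 CPM in Control mice and at 0.451 to 0.707 CPM in all High-Active mice (log2 difference −3.53, SE 0.63, adjusted p = 0.01285). Gm5578, the copy of Brox, stood at 0.397, 4.46, 2.88, 5.16 and 4.75 CPM in Control mice and at 0.343 to 0.433 CPM in High-Active mice (log2 difference −3.18, SE 0.61, adjusted p = 0.02039). Control mouse 369 was at the level of the High-Active mice for both copies, and Control mouse 409 lay between it and the other 3. The sum of Gm16589 and Aida was 47.86 CPM ± 2.623 in Control and 46.81 CPM ± 2.379 in High-Active mice (SD, n = 5 each; exact permutation test, p = 0.5476). The sum of Gm5578 and Brox was 72.39 CPM ± 4.691 and 78.66 CPM ± 3.526 (exact permutation test, p = 0.05556, adjusted over the 18 pairs 0.25).

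Gm6180, a processed copy of Cfl1, the actin-severing cofilin of dendritic spines, had 0.149, 0.191, 0.23, 0.322 and 0.214 CPM in Control mice. High-Active mice had 0.264, 12.1, 12.4, 16.7 and 14.8 CPM. Mouse 192, with 13 counts, stood within the Control range, and the other 4 were far above it (log2 difference 5.65, SE 0.68, adjusted p = 0.0004658). The call held in every fit without 1 mouse but was lost with limma-voom, with or without the parents as a random effect. In saline mice all 5 High-Active mice had 11.79 to 15.7 CPM. Cfl1 stood at 627 to 671 CPM in Control and 534 to 659 CPM in High-Active mice and was not called (log2 difference −0.11, adjusted p = 0.3937).

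Gm9843 on chr16:76403251-76403652 is identical over its whole length to Fau, which encodes a fusion of a ubiquitin-like protein with ribosomal protein S30. Mouse 192 again stood apart, at 9.32 CPM against 21.8 to 25.8 CPM in the other High-Active mice and 8.34 to 10.9 CPM in Control mice (log2 difference 1.09, SE 0.18, adjusted p = 0.00879). The difference was −11.31 CPM for Fau and 10.97 CPM for Gm9843, and their sum was 113 CPM ± 10.35 in Control and 112.7 CPM ± 5.227 in High-Active mice (SD, n = 5 each; exact permutation test, p = 0.9762). All 303 windows of 100 bases were shared, so no read of 100 bases wholly inside Gm9843 could be told from Fau by sequence. Tdg-ps, a copy of the DNA glycosylase Tdg, had no count in 4 High-Active mice and 1 count in mouse 905, against 0 to 4.37 CPM in Control mice, of which mouse 407 also had none. Among the 18 sums, that of Gm7094 and Cetn4, a centrin of cilia, differed most clearly, since both were higher in High-Active mice (log2 0.80, exact permutation test, p = 0.007937, adjusted over the 18 pairs 0.1429).

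**Figure D4:**
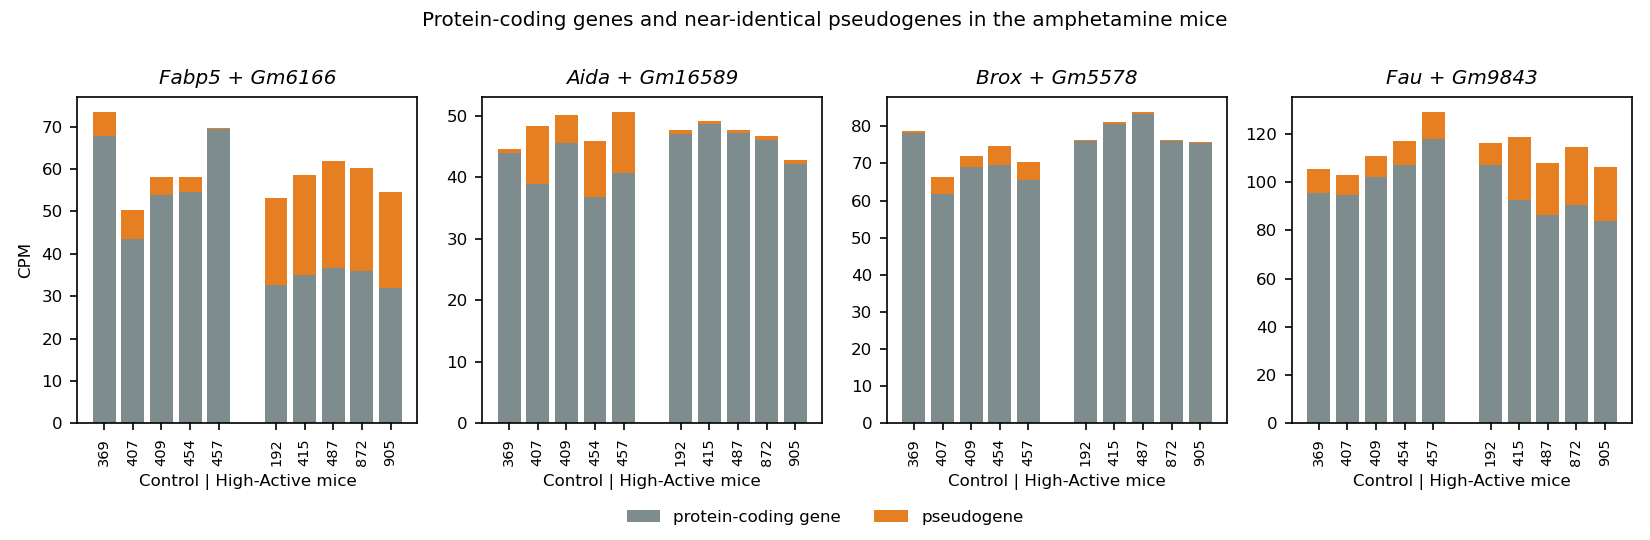
CPM (vertical axis, from 0) of a protein-coding gene in gray and its pseudogene in orange stacked on it, for each of the 10 amphetamine mice, with 5 Control mice on the left and 5 High-Active mice on the right of each panel. The stack of Fabp5 and Gm6166 averages 61.97 CPM in Control and 57.72 CPM in High-Active mice, while the orange share is small in Control mice and large in High-Active mice.

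Called genes were unevenly spread over the chromosomes. Chromosome 5 held 32 called genes of 912 tested (3.51%), 9 higher and 23 lower. In saline mice the chromosome also held 32 called genes (3.51%), a share below the 3.74% of all genes called there. The next were chromosome 16 with 2.45%, chromosome 12 with 2.26% and chromosome 8 with 2.2%. Of the 190 called genes with a position, 88 stood in 34 runs in which neighboring called genes lay within 1 Mb, and 102 stood alone. Whether this is more than the spacing of the genes tested would give was not tested.

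**Figure D5:**
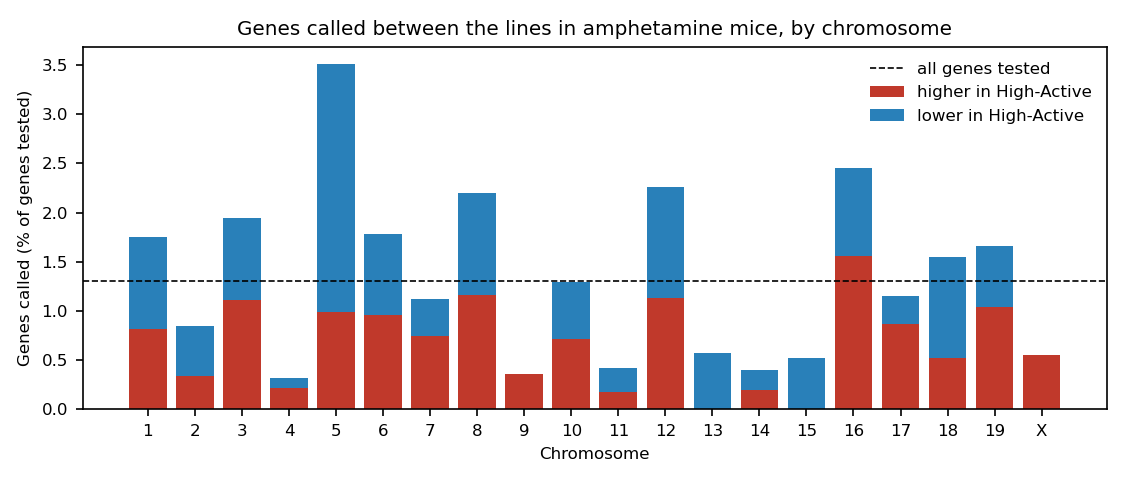
Share of the genes tested that were called between the lines in amphetamine mice (vertical axis, percent), for each chromosome on the horizontal axis, with a dashed line at the share over all genes, 1.3%. Chromosome 5 stands highest among the nuclear chromosomes, at 3.51%.

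The longest run held 6 called of 35 tested genes on chr5:29434664-31291116, beside 1.3% of all genes tested. Tested genes of a run were counted from its first to its last called gene, so called genes stood at both ends by construction. Among the called genes of this run were genes of both directions. Of these Nom1, Selenoi, Preb and Atraid were lower and Dpysl5 and Ift172 higher. Selenoi, the enzyme that makes phosphatidylethanolamine from CDP-ethanolamine, stood at 107 to 110 CPM in Control mice and 76.2 to 103 CPM in High-Active mice (log2 difference −0.34, adjusted p = 0.02554). Ift172, a subunit of the intraflagellar transport train of cilia, was higher by 0.19 (adjusted p = 0.09184). The calls of Ift172, Nom1 and Atraid were lost in 11, 7 and 2 of the 20 fits without 1 mouse. A second run on the same chromosome, chr5:33629925-35105766, held Gm9903, Fgfr3, Tnip2, Htt and Lrpap1. Htt, huntingtin, whose expanded form kills striatal neurons, stood at 199 to 227 CPM in Control and 172 to 199 CPM in High-Active mice (log2 difference −0.21, SE 0.05, adjusted p = 0.08149), and the same size of difference was seen in saline mice (−0.20, adjusted p = 0.05878). The call of Htt was lost in 8 of the 20 fits without 1 mouse, that of Tnip2 in 17 and that of Lrpap1 in 6. A further cluster, singled out after its values were seen, held 4 called of 5 tested genes on chr5:21424958-21785251. This count too ran between called genes, so the share is not a measure of how dense the calls were. All 4 were lower: Fam185a (−0.40), Armc10 (−0.29), Pmpcb (−0.20) and Dnajc2 (−0.25). The call of Armc10 was lost in 16 of the 20 fits without 1 mouse and those of the other 3 in 7 each, and all 4 were lost without mice 415 and 487.

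On chr10:75859353-77565708 a run of 5 called genes held S100b, a calcium-binding protein of astrocytes. S100b stood at 202, 176, 181, 129 and 222 CPM in Control mice and at 113, 105, 102, 109 and 106 CPM in High-Active mice, with no overlap. The log2 difference was −0.77 (SE 0.15, adjusted p = 0.02206), and −0.78 in saline mice (adjusted p = 0.01597). Without mice 415 and 487 the call was lost for S100b. Beside it Lss was lower, Col6a2, a collagen VI chain, was higher by 0.93 (adjusted p = 0.03918), Mif, a cytokine, was higher by 0.17 (adjusted p = 0.09256), and Itgb2, a leukocyte integrin, was lower by 0.42 on the log2 scale. Leaving out 1 mouse ended the call of Mif in 13 fits and of Itgb2 in 16. The run on chr8:84872111-86061376 held Syce2, A230103J11Rik, Wdr83, Zfp791 and Phkb, of which Wdr83 and Phkb, a subunit of the kinase that activates glycogen phosphorylase, were higher and the rest lower. The call of Phkb was lost in 8 fits without 1 mouse.

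Of the 41 gene lists compared, 12 had a called member and 29 had none. Over all genes tested 1.3% were called. No immediate early gene was called among 31 tested, and none had an unadjusted p under 0.05. Their median log2 difference was −0.13, with 27 below 0, against 0.18 in saline mice, and without mice 415 and 487 it was 0.06. Fosb differed by −0.46 (SE 0.30) and Egr1 by −0.34 (SE 0.26), with adjusted p values of 0.5351 and 0.6019. Ccn1 had the smallest p of the list (−0.44, adjusted p = 0.4834).

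The 20 marker genes of medium spiny neurons all lay below 0, with a median of −0.26, and none was called. An unadjusted p under 0.05 was reached by 11 of them, all lower, against 5.93% of all genes tested. Arpp21, a phosphoprotein regulated by cyclic AMP, had the smallest p (−0.38, SE 0.11, adjusted p = 0.1483), with 1210 to 1430 CPM in Control mice and 845 to 1190 CPM in High-Active mice. The next were Meis2, a homeodomain factor (−0.34), Rasd2, a small GTPase of the striatum (−0.36), and Rgs9, which turns off G protein signals of dopamine receptors (−0.39). In saline mice the median was −0.11. The summed level of the list was 12150 to 14100 CPM in Control mice and 9348 to 12790 CPM in High-Active mice, the lowest in mouse 415. Markers of septal and diencephalic neurons were above 0 in all 10 tested genes, with a median of 1.21, and 4 had an unadjusted p under 0.05 in the higher direction, against 6.71% of all genes tested. Hcrt, the hypothalamic peptide orexin, had 0 to 25 counts per mouse. Without mice 415 and 487 the medians were −0.18 for medium spiny and 0.15 for septal and diencephalic markers.

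Markers of other cell types were also compared. The medians were 0.21 for 20 markers of oligodendrocytes (0.06 without mice 415 and 487), −0.14 for 14 of microglia and 0.19 for 15 of endothelium and pericytes. The 13 markers of choroid plexus and ependyma had a median of 0.68, and −0.49 without mice 415 and 487. The 11 markers of cortical excitatory neurons had a median of −0.28, against 0.13 without these mice and −1.23 in saline mice. The 5 red blood cell genes had a median of 1.64, and 2.13 without mice 415 and 487. Their sum was 360.1 CPM in High-Active mouse 905, against 17.83 to 40.96 CPM in the other High-Active mice and 15.07 to 49.62 CPM in Control mice. The part of these cells in the called genes was not tested beyond the fits with marker scores.

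Of 30 tested genes of dopamine receptors and their signaling none was called, and the median was −0.12 (−0.06 without mice 415 and 487). An unadjusted p under 0.05 in the lower direction was reached by 5, beside 5.93% of all genes tested. The list overlaps that of medium spiny markers, since its lowest value, −0.39, was that of Rgs9, so it is not a separate result. Drd1 stood at 223 to 259 CPM in Control and 173 to 270 CPM in High-Active mice, which overlap (log2 difference −0.24, adjusted p = 0.4703). Drd2 had 121 to 154 and 98.4 to 136 CPM (−0.24, adjusted p = 0.4284). Among 6 tested genes of dopamine synthesis, transport and breakdown, Maoa, the monoamine oxidase that degrades dopamine in mice, differed by 0.23 (adjusted p = 0.3954). None of 32 tested genes of glutamate receptors and none of 21 genes of GABA synthesis, transport and receptors was called, with medians of −0.08 and −0.02.

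Few genes of the other lists were called. Aldh1a1, an aldehyde dehydrogenase that midbrain dopamine neurons and glia use, was higher at 23.7 to 39.7 CPM in High-Active mice against 13 to 19.7 CPM in Control mice (log2 difference 0.97, adjusted p = 0.04743). Kcnk2, a mechanosensitive potassium leak channel, was lower by 0.36 on the log2 scale (adjusted p = 0.07096). It was the 1 call among 61 tested potassium channel genes, beside 1.3% of all genes tested. Hspb8, a small heat shock protein, was higher by 0.73 (adjusted p = 0.09399). Rgs5, a marker of pericytes, was higher by 0.76 (adjusted p = 0.05534), with Control mouse 369 at 92.7 CPM inside the High-Active range of 82.9 to 127 CPM. Fgfr3, a growth factor receptor of astrocytes, was higher by 0.33 (adjusted p = 0.09029) while the astrocyte gene S100b was lower, and the median of the 14 astrocyte markers was 0.10. Of these 5 calls, that of Hspb8 was lost in 13 fits without 1 mouse, that of Fgfr3 in 12, that of Rgs5 in 7, that of Kcnk2 in 6 and that of Aldh1a1 in 3.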

How the data were processed

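RNA from the striatum of 20 mice was sequenced from TruSeq stranded libraries as paired reads of 100 bases. Per the labels, the authors aligned reads to GRCm38 with TopHat2 2.0.10 and Bowtie2 2.1.0, counted them on Ensembl release 75 genes with HTSeq 0.6.1, and pooled lanes per mouse. The deposited values are whole-number counts per gene, with no normalization. The strand setting of the counting is not given in the sources used here, so overlapping and antisense genes may share reads.

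Genes over 1 CPM in at least 3 of 20 mice were kept (14792). Counts were normalized by TMM and tested with edgeR 4.0.16 (quasi-likelihood, R 4.3.3) in a model of 4 group means, fitted to all 20 mice. The line difference was taken within amphetamine mice, within saline mice, and between them (interaction), with Benjamini-Hochberg adjustment over all genes. Fold changes are on the log2 scale with SE, per-mouse values are CPM of reads on genes. Reads that fell on no single gene (16.58% in High-Active and 16.35% in Control amphetamine mice) were left out. DESeq2 1.42.0 and limma 3.58.1 served as alternatives. Single values were compared by exact two-sided permutation over 252 regroupings. At the lowest depth 3 counts equal 0.09262 CPM, counting error only. Gene symbols and positions come from GENCODE M21, and pseudogenes were aligned to transcripts with blastn 2.17.0. The tests were checked on simulated data.

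Named genes were the 10 protein-coding genes of smallest p and the 5 of largest difference in each direction, the 3 leading called genes in each direction that are not protein-coding, up to 4 called members (or the leading one) of each list, the 6 smallest interaction p, the 4 longest runs, genes the study names and defining markers. Others, among them Fosb, Egr1, Meis2 and Rgs9, fall outside this rule and were chosen after their values were seen. The members and lists were chosen with earlier results of these data known.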

Additional observations from a re-analysis of the deposited data

Results flagged for a closer look

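In 254 groups of 5 mice checked with Dixon's test, 26 had 1 mouse set apart from the other 4. Chance marks about 1 group in 20. Levels here are log2 CPM.

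In High-Active mouse 192 the pseudogenes Gm6180 (−1.682) and Gm9843 (3.227) were lower than in the other 4 High-Active mice (3.599 to 4.067 and 4.449 to 4.69), and Gm6395 (3.45) was higher (2.591 to 2.713). High-Active mouse 487 was highest in Syce2 (0.1525) and Tgfbr3 (4.061). High-Active mouse 415 was lowest in Itgam (3.833), a microglial integrin, and Nom1 (4.558). High-Active mouse 905 was highest in the hemoglobin gene Hba-a2 (4.78, others 1.668 to 2.312) and in Tdg-ps (−3.878, others −4.386) and lowest in Maoa (5.012).

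Control mouse 369 was lowest in the pseudogenes Gm16589 (−0.8145) and Gm5578 (−1.169) and highest in Rgs5 (6.536) and Ctnnbip1 (4.649). Control mouse 457 was highest in Cry2 (7.578) and Dnajc2 (5.774) and lowest in Grin2b (8.198) and Gm6166 (−2.225, others 1.905 to 2.778). Control mouse 454 was highest in Serpinb6a (5.562), and mouse 409 was lowest in Cyp51 (5.688). Control mouse 407 was highest in Ift172 (6.262) and lowest in Flrt3 (5.674) and Tdg-ps (−4.386).

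In re-phenotyping, Control mouse 407 traveled 0.4742 km/day, against 0.238 to 0.2681 in the other Control mice, and High-Active mouse 905 traveled 3.185 km/day, against 0.6283 to 1.363. After the injection Control mouse 407 also traveled farthest of its group, 57.1 against 23.24 to 30.2 in the unit of the labels.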

How the results depend on the processing

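The 193 calls of amphetamine mice became 462 with DESeq2, 506 with a likelihood ratio test, 117 in a fit of only the 10 amphetamine mice, 69 with cortex and oligodendrocyte scores as covariates and 72 at an FDR under 0.05. Alternatives chosen after seeing the data gave 41 without mice 415 and 487, 100 with a septal score and 65 with a medium spiny score. All 193 genes kept their direction in each of these fits that tested them. Other normalizations, filters, limma-voom and parents as a random effect gave 139 to 193. Leaving out 1 mouse gave 79 (High-Active 415) to 200 (High-Active saline 197), with 126, 89, 97 and 87 without Control mice 407, 409, 454 and 457, and 115, 117 and 120 without High-Active mice 487, 872 and 905.

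The 553 calls of saline mice became 1111 with DESeq2, 1091 with the likelihood ratio test, 32 with cortex and oligodendrocyte scores and 363 with the septal score, and 187 (without Control 883) to 691 (without Control 477) with 1 mouse left out. Interaction calls were 6 with the likelihood ratio test and 0 to 1 with 1 mouse left out.

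With 1 mouse left out, the body mass difference ranged from −10.02 g (exact p = 0.04762, without High-Active 487) to −4.825 g (exact p = 0.3175, without High-Active 905). Its exact p was 0.05 or more in 9 of these comparisons. The difference in distance after injection ranged from 63.65 to 183.8 (largest exact p = 0.03175) and that in re-phenotyping from 0.7481 to 1.387 km/day. Of 73 named called genes, 33 lost the call in 1 or more fits without 1 mouse, and none reversed. No paired analysis was possible because the lines compared share neither replicate numbers nor parents. Parents link mice across treatments, and within a group they link High-Active saline mice 499 and 871, which had the same parents. With parents as a random effect 188 genes were called. Depth limits scarce genes, and the cause of these changes was not tested.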
